A study of Rattus norvegicus with 6 samples.

Results

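The genes followed here handle copper and iron and were measured in LN4D6, a cell line of rat mammary tumour origin: the copper enzymes Heph and Moxd1, the ferroxidase Cp, the iron transporters Slc40a1 and Slc11a2, the transferrin receptor Tfrc, the ferritin heavy chain Fth1, the copper transporters Atp7a and Slc31a1, and the haem-degrading enzyme Hmox1. They were chosen by name, with their differences between the groups already known, and every probe set annotated with exactly 1 of these symbols was taken. Of the 10 genes, 9 had such a probe set, out of 14217 genes on the array, and together they had 20 probe sets out of 31042. Fth1 shares its probe set with another symbol and is given no value.

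RNA came from 3 samples of LN4D6 cells transfected with CREB3L1 and 3 samples of untransfected LN4D6 cells. CREB3L1 is a transcription factor that is made as an endoplasmic reticulum membrane protein and freed by proteases when the organelle is stressed. The cells of both groups carry the same line's background, the reference cells are labelled as untransfected rather than as carrying an empty vector, and the sources used here do not give the construct or the number of clones. Each sample was hybridised to 1 Affymetrix array, and the values are the authors' log2 RMA expression values.

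Iron enters most cells bound to transferrin through the transferrin receptor, leaves the endosome through the transporter encoded by Slc11a2, is stored in ferritin or used for haem and iron-sulphur clusters, and leaves the cell through ferroportin, encoded by Slc40a1. Export is helped by ferroxidases, enzymes that oxidise the iron as it emerges, and the ferroxidases hephaestin and ceruloplasmin depend on copper. Copper itself enters through the transporter encoded by Slc31a1 and is pumped by ATP7A into the secretory pathway, where copper enzymes are loaded. When iron is scarce, iron regulatory proteins stabilise the transferrin receptor transcript and block the translation of ferritin, and an expression array reads only the first of these.

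One array, CREB3L1 replicate 3, differed from the rest. Across probe sets (a description, since these are not replicates) it correlated with the others at a Pearson r of 0.984 to 0.989, and those 5 correlated at 0.996 or more with one another. For Gapdh, the signal at the 3' end minus that at the 5' end was 4.77 here and -0.16 to -0.10 on the 5 others. Results are therefore given with and without it. A log2 value of 5 was taken as the background level, since the table holds no detection calls. The probe set for Creb3l1 itself lay below it, at 3.39 ± 0.03 in CREB3L1 cells and 3.36 ± 0.02 in untransfected cells (SD, n = 3 each), and a rat probe set may not read the construct, so it does not check the transfection. Of 5 basal epithelial markers measured, Krt5, Krt14 and Acta2 were above background, at 14.81, 15.08 and 9.26 in CREB3L1 cells and 14.67, 15.25 and 9.40 in untransfected cells, and Krt17 and Myh11 were below it in both groups. Of the 10 luminal markers Krt8 alone was above it, and Epcam, Cdh1 and Esr1 were among the 9 below. Of 6 markers of fibroblasts and mesenchyme Vim alone was above it, at 15.39 in CREB3L1 cells and 15.35 in untransfected cells. Outside this list, the collagen genes Col3a1 and Col5a2 were bright in both groups. They averaged 14.72 and 13.23 in CREB3L1 cells and 14.53 and 13.45 in untransfected cells. No erythroid, endothelial or liver marker measured reached background in either group, and of 6 leukocyte markers Csf1r alone did.

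The promoters of Heph and Moxd1 are shown because these were the members with the lowest differences, and because they are unlike each other in sequence. Each covers 250 bases before to 50 after the start of the gene in RefSeq's table for assembly GRCr8, and capitals mark CG dinucleotides. The Heph promoter lies at chrX:65308806-65309105 on the + strand and the Moxd1 promoter at chr1:22981010-22981309 on the - strand.
Heph: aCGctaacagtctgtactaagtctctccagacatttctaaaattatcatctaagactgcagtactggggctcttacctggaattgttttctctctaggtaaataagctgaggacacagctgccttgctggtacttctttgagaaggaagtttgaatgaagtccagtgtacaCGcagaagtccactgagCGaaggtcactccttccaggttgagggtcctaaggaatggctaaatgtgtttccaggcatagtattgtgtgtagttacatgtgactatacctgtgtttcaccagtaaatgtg
Moxd1: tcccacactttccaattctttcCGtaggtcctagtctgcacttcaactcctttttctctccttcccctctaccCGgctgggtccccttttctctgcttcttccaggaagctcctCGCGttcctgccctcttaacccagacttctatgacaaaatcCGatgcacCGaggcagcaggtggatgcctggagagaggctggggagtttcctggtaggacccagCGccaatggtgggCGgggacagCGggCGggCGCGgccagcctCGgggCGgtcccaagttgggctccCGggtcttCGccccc
The Heph window held 3 CG dinucleotides at a GC content of 43.3%, and the Moxd1 window held 16 at 61.3%. The median over all promoters of the table was 7 CG dinucleotides and 51.7% GC.

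Promoter sequences were found for 8 of the 10 members, with 2 for Slc11a2, so 9 in all. They were searched on both strands for the cyclic AMP response element TGACGTCA, its variant TGACGTG, the endoplasmic reticulum stress element (ERSE), the core ACGTG of the hypoxia response element, which the variant contains, the antioxidant response element TGACNNNGC, and the metal response element as TGCACNC or TGCGCNC. The cyclic AMP element, its variant, the stress element and the antioxidant element were in none of the 9 windows, and 1.83%, 1.81%, 0.0657% and 12.1% of the 33469 promoters of the table hold them. The core ACGTG was in the windows of Tfrc, 31 bases before the start, and of Slc31a1, against 19.3% of all promoters. Tfrc also held 3 matches to the metal response element, 2 of which overlap, and this motif is in 24.2% of all promoters. The windows follow annotated gene starts, which were not checked against starts of transcription, so a window can lie inside a transcript.

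Heph and Moxd1 were bright in untransfected cells and far lower in CREB3L1 cells, where Moxd1 was near background and Heph read 5.40 to 6.78. Heph, on chromosome X, encodes hephaestin, the membrane-bound ferroxidase best known from the intestine, where it passes dietary iron on to the blood. Its single probe set read 6.78, 5.64 and 5.40 in CREB3L1 cells, against 11.03, 11.09 and 10.89 in untransfected cells. All 3 CREB3L1 arrays lay below all 3 untransfected arrays, with a gap of 4.12 between the groups. The means were 5.94 ± 0.73 in CREB3L1 cells and 11.00 ± 0.10 in untransfected cells (SD, n = 3 each), a log2 difference of -5.06 ± 0.37 (standard error, CREB3L1 minus untransfected here and throughout), or 33.4-fold lower. The spread among CREB3L1 arrays was the wider one, with replicate 1 the highest. Without CREB3L1 replicate 3 the difference was -4.79 ± 0.33, or 27.7-fold. In RNA of whole cultures, fewer expressing cells and less RNA per cell cannot be told apart.

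Moxd1, on chromosome 1, encodes a monooxygenase of the endoplasmic reticulum related to dopamine beta-hydroxylase, a copper enzyme whose own substrate is not settled. Its single probe set read 5.15, 5.60 and 5.71 in CREB3L1 cells, against 11.55, 11.54 and 11.73 in untransfected cells. The groups were 5.83 apart at their nearest arrays, and each was tight, with means of 5.49 ± 0.30 in CREB3L1 cells and 11.61 ± 0.11 in untransfected cells. The difference was -6.12 ± 0.16, or 69.5-fold lower, and -6.23 ± 0.15 without CREB3L1 replicate 3. By log2 difference Moxd1 ranked 8 and Heph 14 from the lowest among the 14217 genes, with values near background taken as they are. With a background level of 6 in place of 5, both CREB3L1 means fall below it, and the folds become at least 32.1 for Heph and at least 48.8 for Moxd1. Without CREB3L1 replicate 3 the CREB3L1 mean of Heph was 6.21, above that level.

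**Figure D1:**
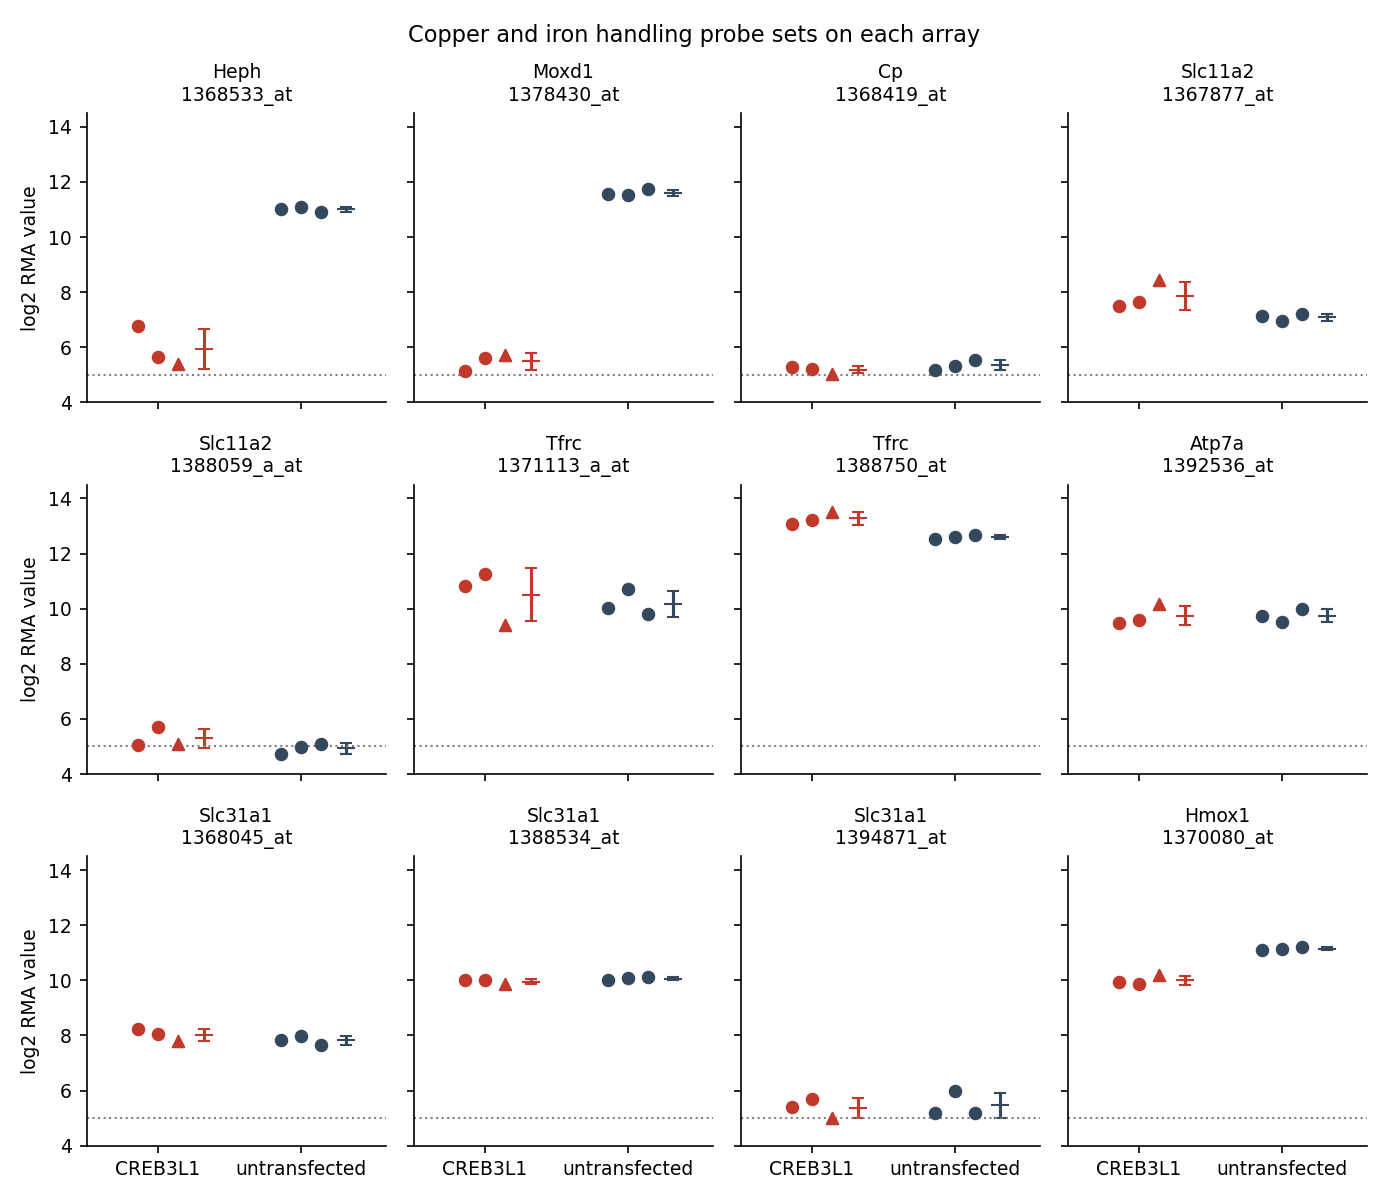
Log2 RMA values (vertical axis) of the 12 probe sets at or above background in at least 1 group, with CREB3L1 arrays left of untransfected arrays in each panel. Points are arrays, the triangle is CREB3L1 replicate 3, bars are the mean and SD of 3 arrays, and the dotted line is the background level of 5. Heph, Moxd1 and Hmox1 lie lower in CREB3L1 cells with no overlap, and 1 probe set each of Slc11a2 and Tfrc lies higher with no overlap.

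Ceruloplasmin and ferroportin, which work beside hephaestin in iron export, were dim or below background in both groups. Cp encodes ceruloplasmin, the copper ferroxidase of plasma made mainly by the liver. The brightest of its 3 probe sets read 5.30, 5.21 and 5.04 in CREB3L1 cells, against 5.19, 5.32 and 5.55 in untransfected cells, close to background on every array. The groups overlapped, and the difference was -0.17 ± 0.11. A second probe set, below background, read 4.81, 4.73 and 2.98 in CREB3L1 cells, against 4.81, 4.81 and 4.78 in untransfected cells. The low value there came from CREB3L1 replicate 3 alone, and without it the difference of -0.62 ± 0.51 was -0.03 ± 0.04. The remaining Cp probe set and all 3 of Slc40a1 lay below background in both groups, with differences of -0.05 to 0.02. Slc40a1 encodes ferroportin, the only iron exporter known in mammals, and its brightest probe set averaged 2.65 ± 0.05 in CREB3L1 cells and 2.64 ± 0.03 in untransfected cells. A probe set below background does not show that a transcript is absent.

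The members for iron uptake, Tfrc and Slc11a2, had positive differences on all 4 of their probe sets, but none passed with all 6 arrays and the groups overlapped on 2. Tfrc encodes the transferrin receptor, and its brighter probe set read 13.07, 13.23 and 13.52 in CREB3L1 cells, against 12.54, 12.61 and 12.68 in untransfected cells. The groups did not overlap, with a gap of 0.39, and the difference was 0.66 ± 0.12, or 1.58-fold. Its other probe set read 10.82, 11.27 and 9.42 in CREB3L1 cells, against 10.01, 10.72 and 9.80 in untransfected cells. There CREB3L1 replicate 3 was the lowest of all 6 arrays, the groups overlapped and the difference was 0.32 ± 0.54, whereas without that array it was 0.87 ± 0.31 and the groups did not overlap. On the brighter probe set the same array was the highest.

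Slc11a2 encodes the divalent metal transporter that moves iron across the apical membrane of the intestine and out of endosomes. Its brighter probe set read 7.50, 7.66 and 8.43 in CREB3L1 cells, against 7.12, 6.95 and 7.19 in untransfected cells. The groups were 0.31 apart, and CREB3L1 replicate 3 lay well above the other CREB3L1 arrays. The difference was 0.78 ± 0.26, or 1.72-fold, and 0.49 ± 0.09, or 1.41-fold, without that array. The dimmer probe set, near background, overlapped between the groups and gave 0.36 ± 0.20.

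The genes of copper import and delivery had small differences. Slc31a1 encodes the high-affinity copper importer of the plasma membrane, and the brightest of its 4 probe sets read 10.005, 10.005 and 9.847 in CREB3L1 cells, against 9.998, 10.068 and 10.112 in untransfected cells. The groups overlapped, with a difference of -0.11 ± 0.06, and the 3 others gave 0.20 ± 0.14, -0.09 ± 0.29 and, below background, 0.28 ± 0.34. Leaving out CREB3L1 replicate 3 gave -0.05 ± 0.05 for the brightest and 0.32 ± 0.11, 0.09 ± 0.28 and 0.50 ± 0.32 for the others, and the groups no longer overlapped on the probe set at 0.32. Atp7a, on chromosome X as Heph is, encodes the pump that loads copper enzymes, and its 1 probe set above background read 9.49, 9.60 and 10.16 in CREB3L1 cells, against 9.73, 9.51 and 10.005 in untransfected cells. These arrays overlapped fully, and the difference was 0.00 ± 0.22, or -0.21 ± 0.15 without CREB3L1 replicate 3. The other 2 Atp7a probe sets were below background in both groups.

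Hmox1 encodes haem oxygenase 1, the stress-inducible enzyme that opens the haem ring and frees its iron. It read 9.95, 9.86 and 10.19 in CREB3L1 cells, against 11.10, 11.13 and 11.22 in untransfected cells. All CREB3L1 arrays lay below all untransfected arrays, by 0.91 at the nearest, and both groups were well above background. The means were 10.001 ± 0.17 in CREB3L1 cells and 11.15 ± 0.06 in untransfected cells, a difference of -1.15 ± 0.09, or 2.21-fold lower, and -1.24 ± 0.05 without CREB3L1 replicate 3.

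Over all 20 probe sets of these genes, 12 reached background in at least 1 group. Fitted with limma across all 31042 probe sets and adjusted by Benjamini-Hochberg, 3 of the 20, those of Heph, Moxd1 and Hmox1, passed the threshold of 0.05 as lower in CREB3L1 cells, and 0 as higher. Of all probe sets 0.963% were called lower and 0.425% higher. At an unadjusted p under 0.05 the counts were 3 lower and 2 higher, beside 5.49% and 4.17% of all probe sets. The genes were picked with this comparison in view, so the counts describe them and support nothing. Without CREB3L1 replicate 3, the same 3 were called lower and 1, the brighter Tfrc probe set, higher, where 2.44% of all probe sets were called lower and 1.54% higher. Heph lost its call without untransfected replicate 1, and Hmox1 lost its call without any 1 of the untransfected arrays or without CREB3L1 replicate 1. Groups did not overlap for 3 lower and 2 higher, beside 7.75% and 6.52% of all probe sets. The median difference of the 20 was -0.03, and that of all probe sets was -0.01.

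**Figure D2:**
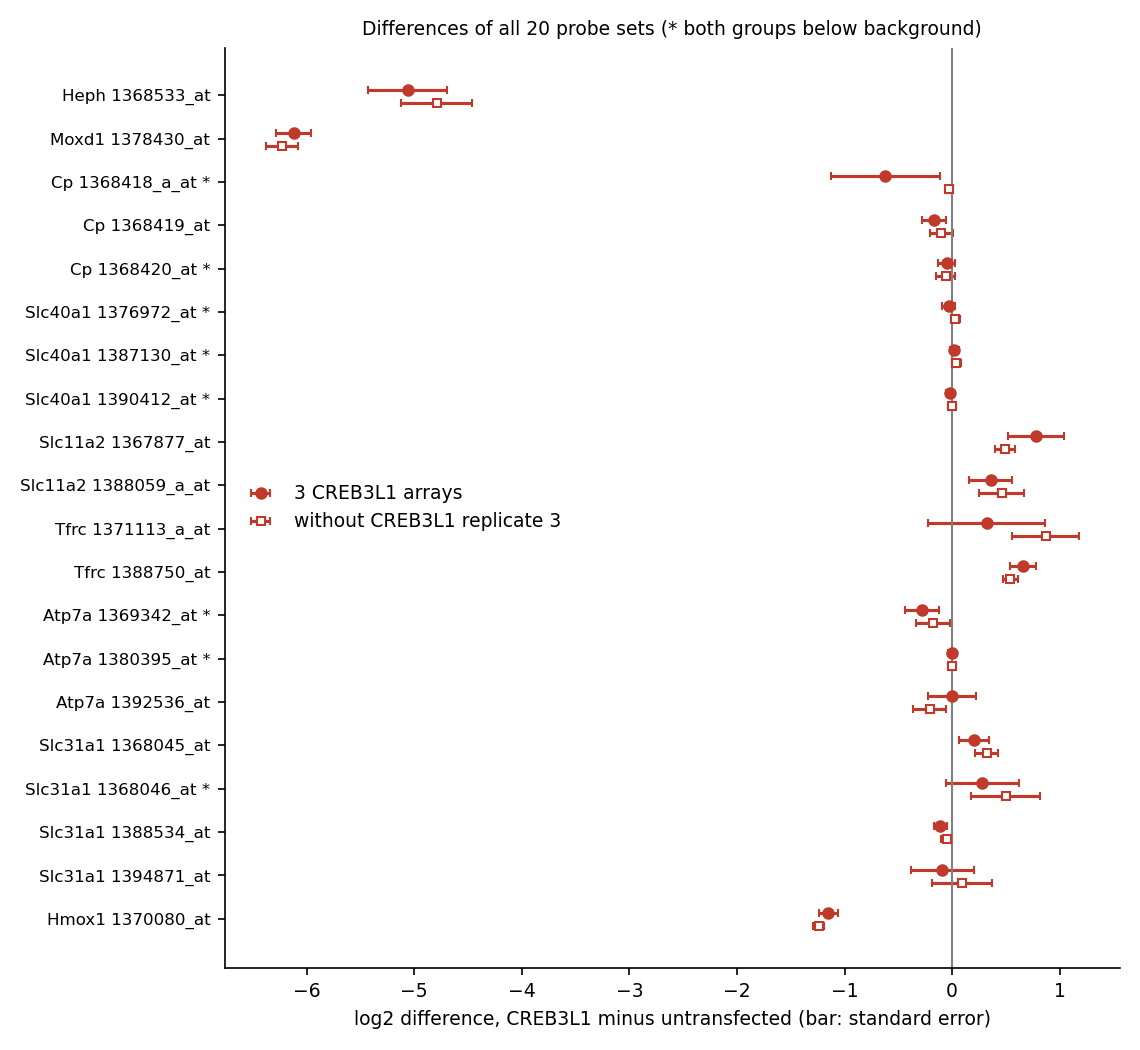
Log2 differences, CREB3L1 minus untransfected (horizontal axis), of the 20 probe sets, with bars for the standard error of the fit. Filled circles use all 6 arrays, open squares leave out CREB3L1 replicate 3, and an asterisk marks probe sets below background in both groups. Heph at -5.06 and Moxd1 at -6.12 stand far left, Hmox1 at -1.15, and the filled circles of all others lie between -0.62 and 0.78.

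The genes next to Heph and Moxd1 on their chromosomes were read to see whether the low values extended to them. Msn, the nearest measured gene on one side of Heph, which encodes the membrane linker moesin, averaged 15.71 ± 0.32 in CREB3L1 cells and 15.70 ± 0.08 in untransfected cells. Stard8, the nearest on the other side, was below background in both groups. Of the 10 flanking genes, 5 on each side, 7 reached background, with differences of -0.11 to 0.58. With limma 0 of the 10 passed, and 3 were higher and 0 lower at an unadjusted p under 0.05, where 6.05% of all genes were higher and 7.99% lower. Stx7, a syntaxin gene of the endosome beside Moxd1, averaged 11.52 ± 0.12 in CREB3L1 cells and 11.47 ± 0.11 in untransfected cells (difference 0.05 ± 0.09). Ccn2, on the other side, was below background in both groups. Of the 10 genes around Moxd1, 3 reached background, with differences of -0.33 to 0.31. The 1 that passed the test, Enpp3, gave -1.25 ± 0.13 (limma adjusted p = 0.0190) while below background in both groups. At an unadjusted p under 0.05, 0 of these 10 were higher and 2 lower.

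**Figure D3:**
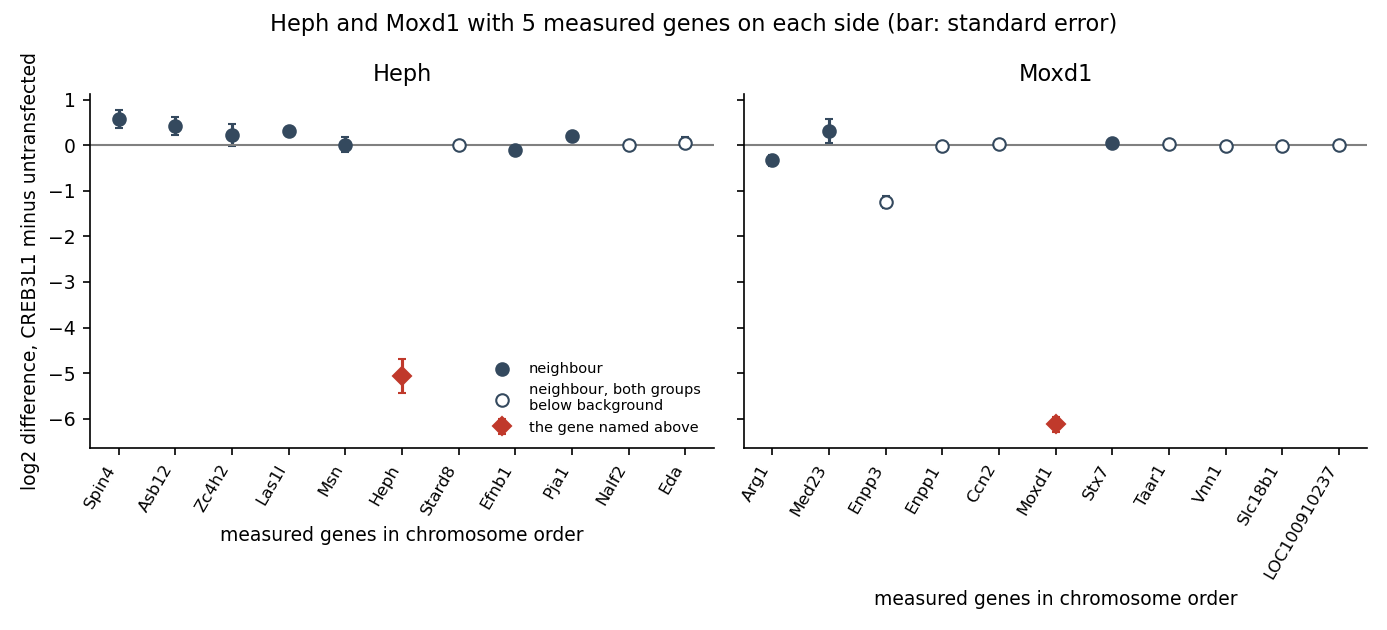
Log2 differences, CREB3L1 minus untransfected (vertical axis), of Heph and Moxd1 and of 5 measured genes on each side in GRCr8 order (horizontal axis, not to distance). Bars are standard errors, and open points are genes below background in both groups. Neighbours above background lie between -0.33 and 0.58, far above Heph at -5.06 and Moxd1 at -6.12.

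Likeness of pattern was measured as the root mean square difference between the 6 values of a gene and of Heph or Moxd1, after centring each on its untransfected mean, over 7675 other genes above background in untransfected cells. The genes nearest to Heph were Arhgap6 (0.46), Inhca (0.47) and Fxyd3 (0.49), with log2 differences of -5.03, -5.14 and -4.52. Those nearest to Moxd1 were Fabp4 (0.23), Prps2 (0.26) and Fgfbp1 (0.34), with differences of -6.17, -6.32 and -6.42. Centred this way, the measure follows mainly the size of the difference between the groups. Genes with differences close to those of Heph or Moxd1 are therefore near them by construction. All 6 genes were below background in CREB3L1 cells, so their differences take dim values as they are. As bounds against the background level, Fgfbp1 was at least 80.1-fold lower and Fabp4 at least 16.6-fold lower.

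Other genes of copper and iron handling were taken from 6 lists drawn up by function. Earlier results of these data were known when the lists were chosen, so their counts and p-values are descriptive. Of their 122 genes 104 were measured, 65 of them above background in at least 1 group. Each gene was read from its brightest probe set. With limma adjusted over all probe sets, 1 rose, 2 fell and 101 did not pass, where 0.577% of all genes were called higher and 1.52% lower. The median difference was -0.01, the same as over all 14217 genes. Without CREB3L1 replicate 3, 5 rose and 6 fell, where 2.02% and 3.70% of all genes did.

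Slc31a2 fell in the list of copper transport, chaperones and metallothioneins. It encodes a relative of the copper importer SLC31A1, found on internal membranes, and it lies close to Slc31a1 on chromosome 5. Its values were 7.38, 7.32 and 7.25 in CREB3L1 cells, against 8.44, 8.44 and 8.51 in untransfected cells. The groups were far apart relative to their spread, with means of 7.31 ± 0.07 in CREB3L1 cells and 8.46 ± 0.04 in untransfected cells (difference -1.15 ± 0.05, limma adjusted p = 0.00146, range over 13 alternatives 1.73e-04 to 0.0178). A second Slc31a2 probe set was below background in both groups (-0.03). In this list 17 genes were measured, with 0 called higher, 1 called lower and a median of -0.01. At an unadjusted p under 0.05 there were 2 higher and 3 lower, beside 6.05% and 7.99% of all genes. Without CREB3L1 replicate 3 the copper-regulating gene Commd1 and the metallothionein gene Mt2A were called lower too.

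In the list of copper enzymes 13 genes were measured, 10 of them below background in both groups, and the median was -0.02. At an unadjusted p under 0.05, 1 was higher and 1 lower, beside 6.05% and 7.99% of all genes. The 1 that passed, Loxl1, a lysyl oxidase that crosslinks elastin, read 4.57, 4.85 and 4.68 in CREB3L1 cells, against 3.70, 3.74 and 3.36 in untransfected cells. The difference was 1.10 ± 0.13 (limma adjusted p = 0.0279), with both groups below background. Leaving out any 1 array other than CREB3L1 replicate 3 ended this call, with an adjusted p of 0.0523 to 0.110. Dopamine beta-hydroxylase (Dbh), the relative of Moxd1, was below background, at 2.34 ± 0.04 in CREB3L1 cells and 2.38 ± 0.04 in untransfected cells.

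Mitochondrial iron and iron-sulphur assembly was measured by 19 genes, 18 of them above background. Nfu1, which carries iron-sulphur clusters to target enzymes, fell to 11.05 ± 0.06 in CREB3L1 cells, against 11.47 ± 0.07 in untransfected cells (difference -0.42 ± 0.05, limma adjusted p = 0.0321). Its call was lost in 9 of 13 alternatives, with an adjusted p of up to 0.155, among them centring on array medians (0.0564). The list's median was 0.01. At an unadjusted p under 0.05, 2 genes were higher and 3 lower, beside 6.05% and 7.99% of all genes. Without CREB3L1 replicate 3 Hspa9, the mitochondrial chaperone, was also called lower (-0.25 ± 0.03, limma adjusted p = 0.0242). Another bright Hspa9 probe set was not called without that array (-0.15 ± 0.16, limma adjusted p = 0.969), and its groups overlapped.

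Of 16 measured genes of haem synthesis and breakdown, limma called 0 in either direction. At an unadjusted p under 0.05, 0 were higher and 3 lower, beside 6.05% and 7.99% of all genes. The smallest p belonged to Alad, an early enzyme of haem synthesis, and to Tspo, a porphyrin-binding protein of the outer mitochondrial membrane. Alad averaged 9.02 ± 0.16 in CREB3L1 cells and 9.49 ± 0.07 in untransfected cells (difference -0.48 ± 0.09, limma adjusted p = 0.117), and without CREB3L1 replicate 3 the adjusted p was 0.00893. Without that array Pgrmc1, a haem-binding membrane protein, was called higher (0.32 ± 0.05, limma adjusted p = 0.0358). Tspo differed by -0.25 ± 0.06 (limma adjusted p = 0.225). The median of the list was -0.08.

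Iron uptake and export genes numbered 21, of which 8 reached background, and limma called 0 in either direction. At an unadjusted p under 0.05, 3 were higher and 0 lower, beside 6.05% and 7.99% of all genes. The metalloreductase genes Steap2 and Steap1 had the smallest p. Steap2 read 8.66, 8.81 and 9.42 in CREB3L1 cells, against 8.22, 8.13 and 8.25 in untransfected cells (difference 0.77 ± 0.20, limma adjusted p = 0.245). CREB3L1 replicate 3 was the highest array, and without it the difference was 0.54 with an adjusted p of 0.0184. Steap1 gave 0.32 ± 0.11 (limma adjusted p = 0.398). The median was 0.00 over the list and 0.31 over the 8 genes above background, where all genes above background had 0.01. With that array left out, the median of the 8 was 0.19, and that of all genes above background was -0.01. By the same measure with all arrays, iron storage had 0.02, haem -0.13, mitochondrial iron 0.02, copper transport -0.05 and copper enzymes 0.10. Without CREB3L1 replicate 3 these were -0.03, -0.15, -0.04, 0.00 and -0.04.

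Among 18 genes of iron storage and its control limma called 0 as well, and the median was 0.00. At an unadjusted p under 0.05, 3 were higher and 0 lower, beside 6.05% and 7.99% of all genes. Smad7, a brake on the signal that drives hepcidin, averaged 8.85 ± 0.16 in CREB3L1 cells and 8.34 ± 0.07 in untransfected cells (difference 0.51 ± 0.09, limma adjusted p = 0.0893). With quantile normalisation its adjusted p was 0.0353, and without CREB3L1 replicate 3 it was 0.00759. Neo1, a receptor gene of the same list, was also called higher without that array (0.44 ± 0.06, limma adjusted p = 0.0211). Bmp6, a ligand of the signal that drives hepcidin, gave 0.29 ± 0.09 (limma adjusted p = 0.328) while below background in both groups. Hamp, the hepcidin gene itself, was below background, at 1.31 ± 0.03 in CREB3L1 cells and 1.33 ± 0.01 in untransfected cells. Hjv, Hfe and Bmp2 of this list were below it too. Id1, which was bright, gave -0.11 ± 0.14, and -0.24 ± 0.10 without CREB3L1 replicate 3, and was called in neither case.

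**Figure D4:**
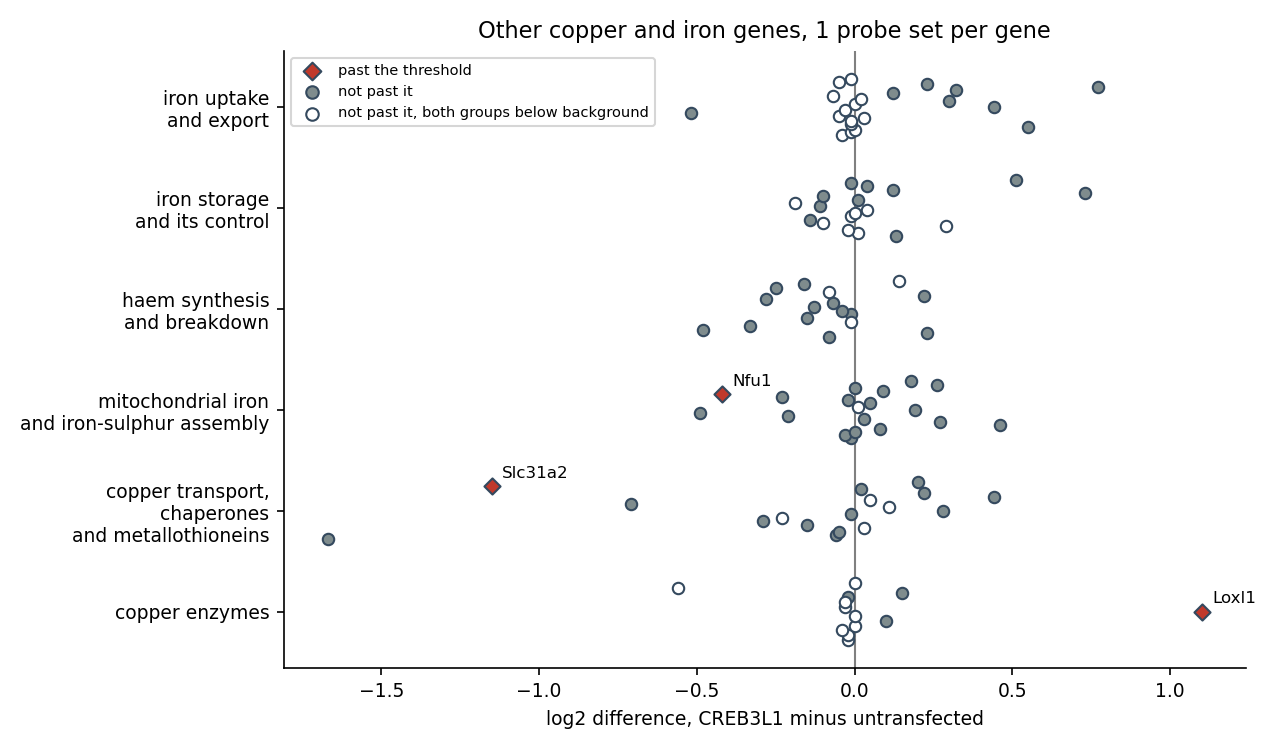
Log2 differences, CREB3L1 minus untransfected (horizontal axis), of the 104 measured genes of 6 copper and iron lists, 1 point per gene at its brightest probe set. Diamonds passed the limma test over all probe sets, filled circles did not, and open circles did not and were below background in both groups. Slc31a2 at -1.15 and Nfu1 at -0.42 fell, and Loxl1 at 1.10 rose while below background in both groups, which its diamond does not mark. The call of Nfu1 was lost in 9 of 13 alternatives and that of Loxl1 in 5 of 12.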

How the data were processed

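Expression was measured in 6 samples, and the values used are the log2 expression values that the authors deposited; the submitters' processing notes name RMA and Partek 6.6. The sources used here state neither log base nor background settings, and the range of the values was taken to be that of log2 intensities. Of 31099 probe sets, 57 controls were set aside. Gene symbols were those of GEO's annotation of the platform, which may be outdated: 20826 probe sets had 1 symbol, 436 several and 9780 none listed.

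Groups followed the label on transfection, and replicate numbers only name arrays; at most 10 probe sets were equal to the last digit between any 2 arrays. Nothing says that the samples were separate cultures, so the p-values reflect only how far these samples vary, which may be technical, and 3 arrays per group limit the precision. The comparison used limma 3.58.1 under R 4.3.3 (lmFit, eBayes, two-sided, Benjamini-Hochberg over 31042 probe sets, threshold 0.05), and the fit was tested on simulated data. The members and lists were chosen with earlier results of these data known, so the members are given without p-values and the counts of their calls are a description. Named genes are the members, Creb3l1, up to 4 genes past the threshold from each list (or, with none past it, the 2 of smallest p), the 3 nearest in pattern to Heph and Moxd1, and the genes beside them; others were named for context after their values were seen. Alternatives were median centring, quantile normalisation, a filter on dim probe sets, a variance trend, robust eBayes, array weights, the mean of a gene's probe sets, other background levels and leaving out each array.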

Additional observations from a re-analysis of the deposited data

How the results depend on the processing

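No paired analysis was possible because no label numbers the replicates of either group. With 6 arrays, 132 probe sets were called higher and 299 lower. A mean-variance trend gave 79 higher, and array weights, which gave CREB3L1 replicate 3 the lowest weight (0.170), gave 600 higher and 952 lower. Leaving out each array gave 28 to 479 higher and 116 to 756 lower, the highest counts being those without CREB3L1 replicate 3 and the others at most 44 and 135. Among the member probe sets, called 3 lower and 0 higher with all arrays, array weights called 1 higher, the brighter one of Tfrc, and leaving out each array gave 1 to 3 lower and 0 to 1 higher. Moxd1 was called lower in all 12 alternatives, Heph in all but the one without untransfected replicate 1, and Hmox1 in 8 of 12, not without CREB3L1 replicate 1 or untransfected replicate 1, 2 or 3. Of the other copper and iron genes, called 1 higher and 2 lower with all arrays, quantile normalisation called 2 higher and 1 lower, the filter on dim probe sets 0 higher and 1 lower, median centring 1 lower, a trend 1 lower, and array weights 7 higher and 7 lower. Leaving out each array gave 0 to 5 higher and 1 to 6 lower. Of 232 recomputed member differences, 231 moved by less than the spread between replicates. The other was that of the brightest Cp probe set, near background, which moved from -0.17 to 0.00 with quantile normalisation. Larger shifts fell within a spread that includes CREB3L1 replicate 3, so the count does not mean that differences stayed alike. Without that array a second Cp probe set went from -0.62 to -0.03 and the dimmer Tfrc one from 0.32 to 0.87. Without CREB3L1 replicate 2 that Tfrc probe set went to -0.06. The causes were not tested. With no detection calls, values near 5 cannot be told from background.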

Other observations

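The genes in this paragraph were chosen after their values were seen. Slc31a2, which fell, and Slc31a1, whose groups overlapped on all 4 probe sets with all 6 arrays and on 3 of them without CREB3L1 replicate 3, are separated on chromosome 5 by 1 measured gene, Fkbp15, at 0.22 ± 0.23 (limma adjusted p = 0.9998). Beside Hmox1 on chromosome 19, Tom1, which sorts endosomal cargo, averaged 9.35 in CREB3L1 cells and 10.24 in untransfected cells, a difference of -0.88 ± 0.13 called by limma with an adjusted p that rounds to the threshold of 0.05. Ces5a, 3 measured genes from Hmox1, gave -3.49 ± 0.58 with CREB3L1 cells below background and did not pass (limma adjusted p = 0.0767). On the other side of Hmox1, the replication gene Mcm5 gave 0.11 ± 0.14 (limma adjusted p = 0.9998). Around Atp7a on chromosome X, the chromatin remodeller gene Atrx rose by 0.52 ± 0.07 (limma adjusted p = 0.0338) and Taf9b fell by 0.34 ± 0.03 (limma adjusted p = 0.0132).

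The metallothionein gene Mt2A, whose product binds zinc and copper, read 12.72, 12.67 and 13.26 in CREB3L1 cells, against 13.67, 13.49 and 13.62 in untransfected cells. Its groups did not overlap, and the difference was -0.71 ± 0.17 (limma adjusted p = 0.195). Without CREB3L1 replicate 3 the difference was -0.90 ± 0.06 (limma adjusted p = 0.00460). Ap1s1, an adaptor subunit of the trans-Golgi network linked to copper metabolism through an inherited disorder, read 13.38, 13.34 and 7.37 in CREB3L1 cells, against 13.23, 13.13 and 12.75 in untransfected cells. The value of CREB3L1 replicate 3 alone set it apart, and without that array the difference of -1.67 ± 1.73 was 0.33 ± 0.15.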
